A study of Homo sapiens with 16 samples.

Results

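The genes described here are the human zinc finger genes whose symbol is ZNF with a number and that lie on an autosome other than chromosome 19. A gene was kept where at least 2 of 8 libraries held a called base, a single RNA position listed as m6A, inside its span on its own strand. Of 252 protein-coding genes with such a symbol and place, 194 were kept. They stand beside 178 zinc finger genes of chromosome 19 chosen in the same way and belong to 12511 genes with called bases in at least 2 libraries. No called base fell in 35 of the others, 5 had one in 1 library, and 18 were not analysed because their strand was not known. Membership rests on the symbol and place alone, and protein domains were not computed.

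The libraries are m6A-eCLIP, in which fragmented polyA RNA is pulled down with a crosslinked antibody to N6-methyladenosine (m6A) and the bound base is read from the sequencing. The first and second groups are U87-R, a temozolomide-resistant form of the glioma line U87 MG grown in medium with 50 µM temozolomide (TMZ), an alkylating drug. The first is U87-R STM2457 (2 libraries), given 50 µM STM2457 for 96 hours. STM2457 inhibits METTL3, the enzyme that writes most m6A of messenger RNA. The second is U87-R with the DMSO label (3 libraries), and the third is U87 MG, called U87 here, with the DMSO label and no TMZ (3 libraries). Resistance and the drug in the medium cannot be told apart. Since no label calls the replicates separate cultures, the spread behind each p-value is that of these libraries and may be technical.

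Zinc finger proteins of the C2H2 kind hold a zinc ion in each finger and read DNA, or in some members RNA, with a row of fingers. Many carry a KRAB domain, which recruits TRIM28 and the histone methyltransferase SETDB1 and silences transposable elements. Chromosome 19 holds the large clusters of KRAB genes. The genes elsewhere include more proteins with other partners: corepressors, ribosome assembly factors, spindle proteins and regulators of development. METTL3 places m6A mostly inside long exons and near the stop codon. Antibodies to m6A also bind m6Am, the methylated form of an adenosine at the first transcribed base, which PCIF1 and not METTL3 makes.

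The sequences shown next belong to called bases at or near the start of the RNA, which are described after the sums. They were picked from the bases with the highest scores in both STM2457 libraries, and so by the treated libraries. Not all such bases are shown. The A bases of ZNF771, ZNF688 and ZNF32, 23, 8 and 7 nt after a start, scored above that of ZNF804A in both STM2457 libraries. Each line is 21 bases read 5′ to 3′ on the gene's strand from the RefSeq starts of GRCh38.p14, and the capital marks the called base. In the first 7 genes the capital is the first base of a RefSeq transcript. In ZNF207 it lies 7 nt and in ZNF800 4 nt after that base. Only bases that are A are shown; 47 of the 82 bases within 50 nt of a start that both STM2457 libraries held are A.

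ZNF830 (chr17:34961530-34961550, plus strand): gacggaaaccAgaatcgtttt
ZNF655 (chr7:99558632-99558652, plus strand): gggggccctcAttcgggaccc
ZNF22 (chr10:45000913-45000933, plus strand): cgaggccctcActtccggcgg
ZNF622 (chr5:16465790-16465810, minus strand): aagtttcctcAgtgacaatca
ZNF883 (chr9:113012182-113012202, minus strand): ctggcttgggAaccacatcgc
ZNF503 (chr10:75401754-75401774, minus strand): tttcctcgccAgagccccggc
ZNF804A (chr2:184598519-184598539, plus strand): cagcagcagcAactccgagtg
ZNF207 (chr17:32350154-32350174, plus strand): gccgtcggccAttttgtgtct
ZNF800 (chr7:127392694-127392714, minus strand): ggggtcagtcAgtcgctccct

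Each called base has a score in the authors' list of its library, and the scores of a gene's bases were summed per library. Such a sum joins how strongly an RNA is methylated with how much of it there is, because the input libraries were not analysed here. Sums were not divided by gene length and serve to compare libraries, not genes. Of the 194 genes, 155 had a called base in all 8 libraries, and together they held 8953 positions called in any library, with a median of 38.0 per gene and at most 239, in ZNF292. Over the 8 libraries the mean sum per gene ran from 0.172 to 2071 with a median of 101. The deposited lists give no read counts, so depth is unknown. The glioma line markers VIM and CD44 had called bases in every library. VIM had sums of 184 to 198 in U87-R STM2457, 289 to 523 in U87-R and 519 to 568 in U87, and CD44 had sums of 455 to 520 in U87-R STM2457, 1232 to 1503 in U87-R and 1036 to 1325 in U87. Of 12 markers of other cell types, 8 had no called base in any library, 3 were too low to be tested, and PECAM1, of endothelium, had sums of 9.97 and 11.7 in U87-R STM2457, 8.45 to 49.1 in U87-R and 2.77 to 10.9 in U87. In a principal component analysis of all genes, component 1 (52.7% of the variance) set both U87-R STM2457 libraries apart. Component 2 (14.3%) set U87 (39.8 to 59.0) apart from U87-R (-78.1 to -15.6), with U87-R STM2457 between them (3.2 and 8.2). Component 3 (11.3%) set apart replicate 2 of U87-R (-88.2) and of U87 (-47.0) from the other untreated libraries (15.4 to 42.1).

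Zinc finger genes outside chromosome 19 had fewer called bases under STM2457, and about as many in U87-R as in U87. The libraries held 1765 and 1900 called bases of these genes in U87-R STM2457, 3847, 2722 and 3314 in U87-R, and 2826, 3165 and 3419 in U87. Both treated libraries lay below every U87-R library, at 0.556 times the U87-R mean (exact two-sided permutation test, p = 0.1, the smallest possible). U87-R and U87 overlapped, at a ratio of 1.05 (exact p = 0.800). These bases were 1.69% of all called bases in U87-R STM2457, 1.92% in U87-R and 1.87% in U87 (group means). The number of genes with a called base hardly moved, at 180 and 179 in U87-R STM2457, 186, 181 and 183 in U87-R, and 178, 180 and 181 in U87.

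On chromosome 19, more zinc finger genes had a called base in U87-R than in U87. There, 163 and 154 genes had a called base in U87-R STM2457, 167, 161 and 166 in U87-R, and 109, 114 and 116 in U87. The ratio of called bases outside chromosome 19 to those on it was 1.59 and 1.60 in U87-R STM2457, 1.89, 1.90 and 1.93 in U87-R, and 2.63, 2.43 and 2.56 in U87. The 3 groups did not overlap in this ratio (exact two-sided permutation p = 0.1 for U87-R STM2457 against U87-R and for U87-R against U87, the smallest possible). Between the lines, called bases on chromosome 19 were at 1.40 times the U87 mean and those outside it at 1.05 times. A gene called in U87-R libraries alone passes the rule of 2 libraries, and most libraries are U87-R. The choice of genes thus favours U87-R, so these differences between the lines are a description.

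**Figure D1:**
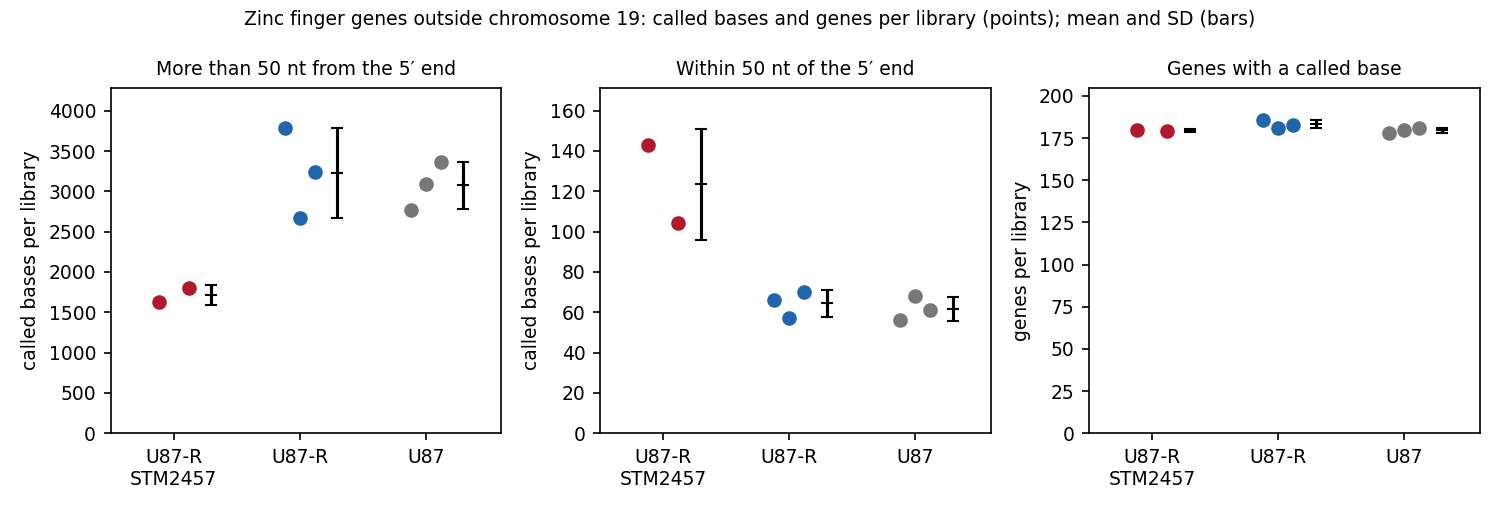
Called bases of the zinc finger genes outside chromosome 19 more than 50 nt from the 5′ end of the gene (left) and within 50 nt of it (middle), and the number of these genes with a called base (right), per library. Points are libraries and bars the mean and SD of U87-R STM2457 (n = 2), U87-R (n = 3) and U87 (n = 3); the treated libraries are lowest in the left panel and highest in the middle one.

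The comparison of U87-R with U87 asks what distinguishes resistant cells from their parent. Few genes differed: 3 had higher sums in U87-R (ZNF488, ZNF300 and ZNF883) and 2 had lower ones (ZNF518B and ZNF503). In limma on log2(sum + 1) with Benjamini-Hochberg adjustment over 10775 genes, the 3 higher are 1.69% of the 177 zinc finger genes tested, where 0.872% of all genes were called higher. The 2 lower are 1.13%, where 0.362% of all genes were called lower. The other 17 genes had too low a sum to be tested, that is under 10 in all libraries or all but 1. Of the called genes, ZNF488, ZNF300 and ZNF883 reached a sum of 10 only in U87-R libraries, treated or not, and ZNF518B only in U87. They were thus tested only through the side on which they are high. The median change was 0.11 (log2), against 0.12 over all genes tested. On chromosome 19, 22 of 135 tested genes were higher, none was lower, and the median was 0.67. The sums of U87-R and U87 did not overlap in 21 genes higher and 6 lower in U87-R (11.1% and 5.10% of all genes). At an unadjusted p under 0.05 there were 20 genes (11.3%), against 12.6% of all genes, so smaller differences were about as common as in other genes. The calls were 3 higher and 1 lower with the replicate number as a block (0.483% and 0.148% of all genes), and 4 and 1 with libraries centred on their medians (1.00% and 0.696%) or scaled to their totals (1.08% and 0.585%). They were 3 and 2 with bases more than 50 nt from the 5′ end (0.819% and 0.414%), and 1 and 1 when called bases were counted in place of scores (0.448% and 0.168%).

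ZNF488 (chr10:47365496-47384293, minus strand), whose mouse counterpart works with Olig2 in oligodendrocyte development, had no called base in U87. ZNF488 was thus kept among the genes described through U87-R libraries alone, treated and untreated. Its sums were 142 and 135 in U87-R STM2457, 234, 65.4 and 146 in U87-R, and 0, 0 and 0 in U87. The adjusted p for U87-R against U87 was 0.00192 (limma), and no fold is given against a group listed at 0. Most of the sum came from a pair of positions. At 47368263 the scores were 117 and 114 in U87-R STM2457, 95.8, 22.5 and 41.9 in U87-R, and were not listed in U87. At 47368518 they were 17.7 and 20.3 in U87-R STM2457, 105, 42.9 and 89.5 in U87-R, and not listed in U87. Under STM2457 the second position was thus below all U87-R libraries while the first was above them, and the sum of the gene did not pass the test (log2 change 0.08 ± 0.69, SE; limma adjusted p = 0.936).

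ZNF300 (chr5:150894399-150904980, minus strand), a KRAB zinc finger gene, followed the same order. Its sums were 153 and 138 in U87-R STM2457, 195, 144 and 113 in U87-R, and 0, 3.52 and 0 in U87. The change between the lines was 6.48 ± 0.70 (log2, SE; limma adjusted p = 0.00365), and the single U87 call was at 150895669, 1270 nt before the annotated 3′ end. Unlike ZNF488, the sum was spread thinly: 14 to 18 bases were called in each U87-R STM2457 library and 21 to 23 in each U87-R library. Against U87-R the STM2457 sums overlapped (log2 change -0.02 ± 0.78, SE; adjusted p = 0.99).

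ZNF883 (chr9:112988129-113012192, minus strand) had sums of 74.0 and 104 in U87-R STM2457, 66.6, 67.4 and 62.7 in U87-R, and 0, 1.39 and 0.541 in U87. The change between the lines was 5.43 ± 0.59 (log2, SE; limma adjusted p = 0.00387). Where the sum lay differed between treated and untreated U87-R. The start base shown above, at 113012192, scored 45.8 and 54.4 in U87-R STM2457, 19.7, 16.9 and 5.03 in U87-R, and was not listed in U87. The position 112998710, inside the gene, was not listed in U87-R STM2457 and scored 16.1, 18.2 and 34.4 in U87-R, and 0, 0 and 0.203 in U87. The start base was therefore higher and the internal base lower under STM2457, without overlap, and the total did not pass the test (adjusted p = 0.637). With bases more than 50 nt from the 5′ end alone, ZNF883 was lower under STM2457 (log2 change -2.11; limma adjusted p = 0.0412).

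ZNF518B (chr4:10439880-10461365, minus strand), which is reported to bind the histone methyltransferase G9a, went the other way. Its sums were 0 and 3.16 in U87-R STM2457, 0, 0 and 0 in U87-R, and 44.1, 68.6 and 75.1 in U87 (limma adjusted p = 0.00560 for U87-R against U87). In U87, 11 to 15 of its bases were called per library, and none was called in U87-R. Its relative ZNF518A had sums of 6.53 and 16.1 in U87-R STM2457, 59.1, 40.0 and 78.2 in U87-R, and 26.1, 18.6 and 28.5 in U87, the opposite order between the lines, with an adjusted p of 0.425 (limma).

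ZNF503 (chr10:75279725-75401916, minus strand), a corepressor of forebrain and limb development, was methylated at many positions in all libraries. Its sums were 793 and 907 in U87-R STM2457, 1958, 2089 and 2030 in U87-R, and 2948, 2835 and 3006 in U87, and no group overlapped another. The difference between the lines was small (-0.53 ± 0.10, log2, SE; limma adjusted p = 0.0446) and is near the threshold. It did not pass with the replicate number as a block (adjusted p = 0.155) or without any 1 of the 6 untreated libraries (0.0507 to 0.175). Nor did it pass with centring (0.0852), scaling to totals (0.0635), a pseudocount of 0.1 (0.0550), no filter (0.0520), counted bases (0.538) or no trend (0.254), and it was not called without either STM2457 library. Single positions differed unequally. At 75398818 the scores were 0 and 0 in U87-R STM2457, 50.3, 33.7 and 18.0 in U87-R, and 108, 109 and 100 in U87. At 75399040 they were 59.5 and 68.4 in U87-R STM2457, 106, 131 and 131 in U87-R, and 127, 127 and 130 in U87, with U87-R and U87 overlapping.

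**Figure D2:**
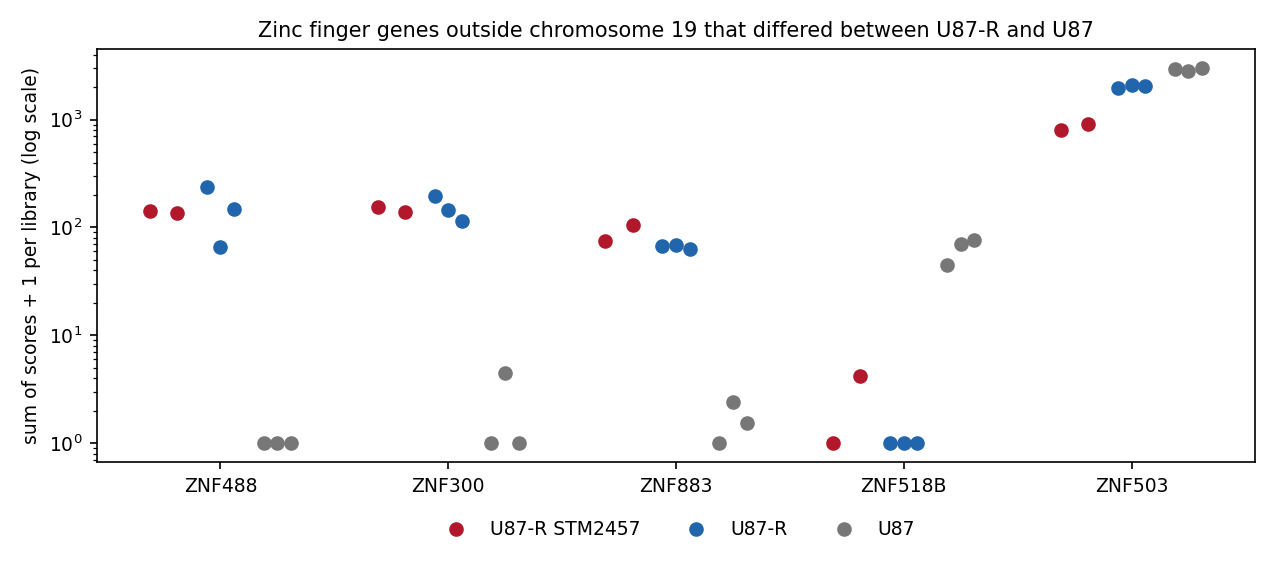
Sum of scores + 1 per library (log scale) of the 5 zinc finger genes outside chromosome 19 that differed between U87-R and U87. Points are libraries of U87-R STM2457 (n = 2), U87-R (n = 3) and U87 (n = 3); ZNF488, ZNF300 and ZNF883 are at or near 0 in U87, ZNF518B in both U87-R groups, and ZNF503 is lowest in U87-R STM2457, higher in U87-R and highest in U87.

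The comparison of STM2457 with DMSO in U87-R asks what inhibition of METTL3 does to these RNAs. Sums fell in 72 of 177 genes tested (40.7%, where 38.5% of all genes were called lower) and were called higher in none (6.32% of all genes). At an unadjusted p under 0.05, 91 were lower and 2 higher (limma), where 52.7% of all genes passed in either direction. The median change was -0.88 (log2), against -0.69 over all genes tested. The falls of the 72 ran from -0.47 to -5.32 with a median of -1.33, and in all 72 both treated libraries lay below all U87-R libraries. Without overlap, 102 genes were lower and 10 higher (50.1% and 17.1% of all genes). On chromosome 19, 26 genes were lower, 4 were higher, and the median was -0.50.

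How many fell depends on what the libraries are set equal to. With each library centred on its median, 44 were lower and 6 higher, and with each scaled to its total score, 39 were lower and 9 higher (24.3% and 15.3%, and 20.9% and 18.1%, of all genes). These scalings move the median change of all genes from -0.69 to -0.13 and -0.01 (log2), and that of the zinc finger genes from -0.88 to -0.32 and -0.18. With the replicate number as a block 62 were lower and 0 higher (33.3% and 5.19% of all genes), and with called bases counted in place of scores 79 were lower and 3 higher (31.2% and 3.04%).

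**Figure D3:**
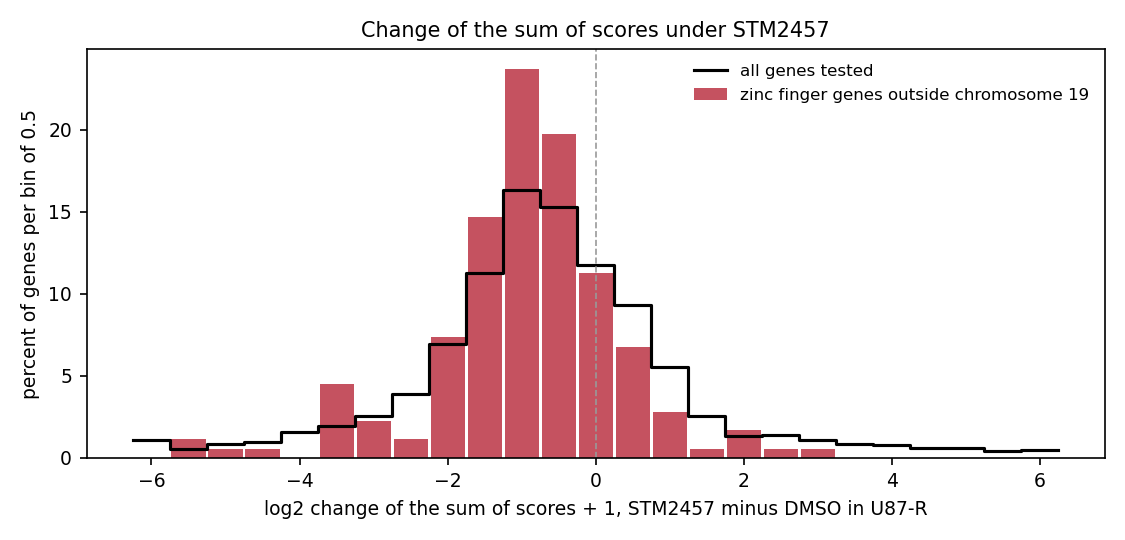
Log2 change of the sum of scores + 1, STM2457 minus DMSO in U87-R, for the 177 zinc finger genes outside chromosome 19 (bars) and all 10775 genes tested (line), in percent of genes per bin of 0.5. The zinc finger genes have a median of -0.88 and all genes one of -0.69, and values beyond the axis are in the end bins.

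The largest falls took genes with moderate sums close to 0. ZNF785 (chr16:30578361-30585697, minus strand) had sums of 0 and 7.69 in U87-R STM2457, 141, 119 and 95.6 in U87-R, and 144, 93.4 and 131 in U87. It changed by -5.32 ± 0.82 on the log2 scale (SE; limma adjusted p = 0.00101), and 9 of its 43 positions also lie in another gene. ZNF696 had 0 and 0.387 in U87-R STM2457, 51.7, 33.5 and 52.3 in U87-R, and 29.9, 53.6 and 59.3 in U87 (adjusted p = 3.68e-04). ZNF330, which encodes the nucleolar protein NOA36, was listed at 0 in both U87-R STM2457 libraries, at 65.6, 47.1 and 9.82 in U87-R, and at 48.5, 73.8 and 57.1 in U87 (adjusted p = 0.00171). In these 3 genes untreated U87-R overlapped U87.

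ZNF34 had sums of 0 and 0.0311 in U87-R STM2457, 31.7, 19.4 and 26.9 in U87-R, and 42.8, 21.8 and 17.5 in U87 (adjusted p = 8.79e-04). ZNF668, linked to DNA repair, had 11.9 and 36.7 in U87-R STM2457, 267, 190 and 300 in U87-R, and 192, 306 and 252 in U87, and was lower under STM2457 (-3.50 ± 0.46, log2, SE; limma adjusted p = 4.55e-04). Its position 31061981 scored 0 and 0 in U87-R STM2457 and 54.1, 22.2 and 41.1 in U87-R. Position 31061879 scored 2.00 and 4.05 in U87-R STM2457 and 40.0, 31.2 and 46.6 in U87-R, so both were lower without overlap.

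ZNF644, a partner of the histone methyltransferases G9a and GLP, had sums of 18.2 and 32.0 in U87-R STM2457, 402, 148 and 258 in U87-R, and 131, 194 and 180 in U87. It changed by -3.31 ± 0.45 on the log2 scale (SE; limma adjusted p = 5.32e-04). Its called bases numbered 7 and 7 in U87-R STM2457, against 34, 21 and 20 in U87-R. ZNF620, ZNF287, ZNF33B and ZNF346 complete the 10 largest falls, and their calls are less secure. ZNF620 had 0.0886 and 5.57 in U87-R STM2457 and 49.5, 21.5 and 32.1 in U87-R (adjusted p = 0.0102), but 0.0965 without STM2457 replicate 1. ZNF287 had 18.6 and 0 in U87-R STM2457 and 72.8, 88.5 and 28.5 in U87-R (adjusted p = 0.0371), but 0.257 without STM2457 replicate 2, 0.0907 without U87-R replicate 1 and 0.0804 without U87-R replicate 2.

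ZNF33B was listed at 0 in both U87-R STM2457 libraries and at 28.2, 12.2 and 4.68 in U87-R (limma adjusted p = 0.0140), but had an adjusted p of 0.108 and 0.101 without STM2457 replicate 1 and 2. It has a near-identical copy, ZNF33A, between which the authors' mapping could have split reads. ZNF33A had 2.12 and 9.48 in U87-R STM2457 and 68.2, 20.2 and 45.6 in U87-R (adjusted p = 0.0190, but 0.0542 to 0.126 without U87-R replicate 1 or 3 or STM2457 replicate 1), so both copies were lower.

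**Figure D4:**
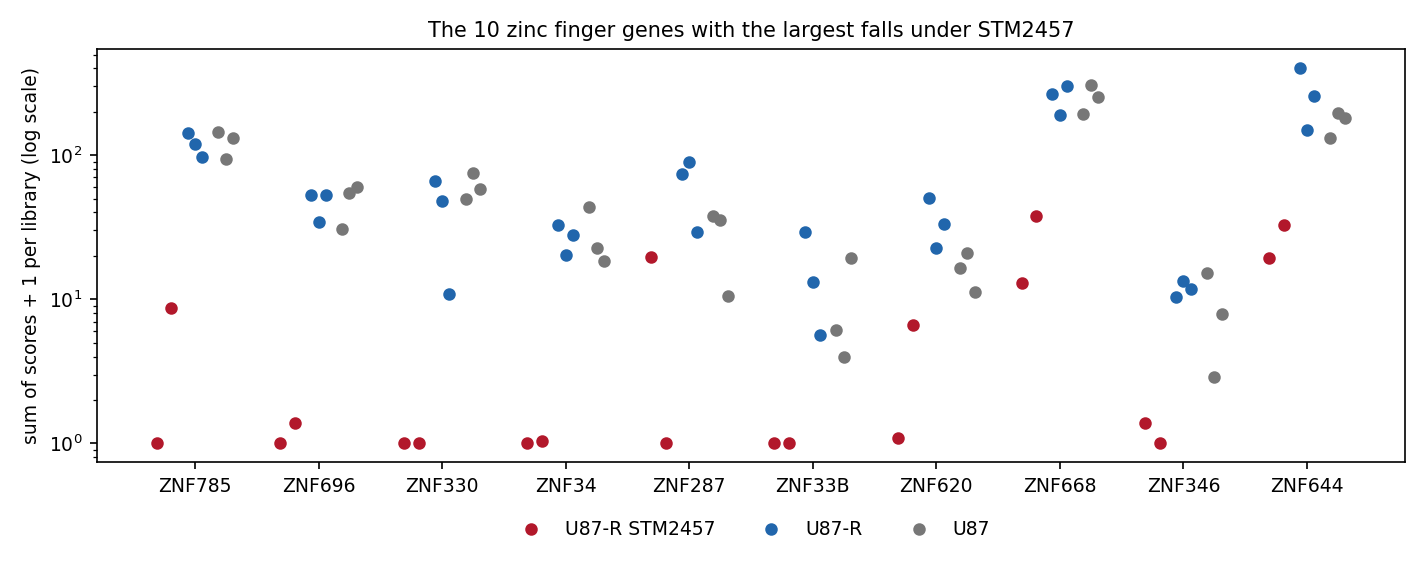
Sum of scores + 1 per library (log scale) of the 10 zinc finger genes outside chromosome 19 with the largest falls under STM2457. Points are libraries of U87-R STM2457 (n = 2), U87-R (n = 3) and U87 (n = 3). In each gene both treated libraries lie below all U87-R libraries, which the choice of these genes required.

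Corepressors and chromatin cofactors (15 genes) were the largest of the role lists of zinc finger genes drawn up here, which hold only part of the 194. The lists were drawn up with earlier results of these data known, so their counts and medians are a description. Of 14 tested, 10 fell under STM2457 (6 lower and 1 higher with centred libraries, 4 and 1 with libraries scaled to their totals), with a median of -1.11 (log2). Of all genes 38.5% were called lower, and 24.3% and 20.9% under these scalings. Between the lines ZNF518B alone was called. ZNF217, an amplified oncogene of breast cancer that binds the CoREST complex, had sums of 566 and 585 in U87-R STM2457, 1693, 1190 and 1333 in U87-R, and 1331, 1461 and 1437 in U87. It changed by -1.27 ± 0.16 on the log2 scale (SE; limma adjusted p = 3.67e-04), with U87-R and U87 overlapping. Not every position was lower: 53576338 scored 89.9 and 90.4 in U87-R STM2457, 80.3, 68.0 and 73.2 in U87-R, and 71.6, 60.0 and 69.2 in U87.

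ZNF532, ZNF592 and ZNF687 encode partners of ZMYND8 in a chromatin complex, and all 3 fell, by unequal amounts. With libraries centred or scaled to their totals, ZNF532 alone of the 3 was still called lower. ZNF532 had 133 and 168 in U87-R STM2457, 723, 352 and 607 in U87-R, and 546, 423 and 656 in U87 (-1.84 ± 0.31, log2, SE; limma adjusted p = 0.00166). ZNF592 had 271 and 234 in U87-R STM2457 and 613, 325 and 530 in U87-R (-0.91 ± 0.25; adjusted p = 0.0186, but 0.0502 to 0.0991 without U87-R replicate 1 or 3 or STM2457 replicate 2). ZNF687 had 389 and 446 in U87-R STM2457 and 771, 524 and 580 in U87-R (-0.56 ± 0.19; adjusted p = 0.0377). The ZNF687 call is not secure: its change was 0.13 with libraries scaled to their totals, and its adjusted p was 0.0664 to 0.220 without U87-R replicate 1 or 3 or either STM2457 library.

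ZNF609, which in mouse neural progenitors works with Integrator, had 354 and 322 in U87-R STM2457, 736, 604 and 680 in U87-R, and 502, 853 and 537 in U87 (-0.99 ± 0.23, log2, SE; limma adjusted p = 0.00749). ZNF609 was not called with libraries centred or scaled to their totals. ZNF516 stood out within the list. Its sums were 173 and 155 in U87-R STM2457, 183, 46.5 and 53.5 in U87-R, and 96.5, 157 and 209 in U87. It did not pass (1.07 ± 0.58, log2, SE; adjusted p = 0.164) but was called higher under both scalings and without U87-R replicate 1 (adjusted p = 0.0138). Among the U87-R libraries, replicate 1 alone was above the treated ones.

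Genes of RNA binding, translation and ribosome assembly fell in 5 of 5 tested, with a median of -1.66 (log2), and 4 of 5 were still called lower under both scalings. All genes had a median of -0.69 with 38.5% called lower, and 24.3% and 20.9% under the scalings. The list is short and was drawn up with earlier results known, and no test was made over it. ZNF638, an RNA- and DNA-binding protein that silences retroviral DNA through HUSH, had 263 and 226 in U87-R STM2457, 979, 554 and 848 in U87-R, and 606, 623 and 639 in U87 (-1.66 ± 0.23, log2, SE; limma adjusted p = 5.57e-04). ZNF598, a ubiquitin ligase that senses collided ribosomes, had 5.65 and 37.9 in U87-R STM2457, 194, 114 and 169 in U87-R, and 139, 155 and 144 in U87 (adjusted p = 0.00373). ZNF593 and ZNF622 resemble yeast factors of the large ribosomal subunit's assembly. ZNF593 had 85.5 and 136 in U87-R STM2457, 283, 280 and 280 in U87-R, and 229, 281 and 246 in U87 (-1.37 ± 0.23; adjusted p = 0.00165). With called bases counted in place of scores its change was 0.13 (log2; adjusted p = 0.814).

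ZNF622 combined a falling sum with a start base that went up. Its sums were 149 and 92.3 in U87-R STM2457, 268, 218 and 196 in U87-R, and 229, 298 and 219 in U87 (-0.93 ± 0.27, log2, SE; limma adjusted p = 0.0224, but 0.0638 without U87-R replicate 1 and 0.211 without STM2457 replicate 2). The start base scored 82.6 and 61.1 in U87-R STM2457, 28.1, 22.4 and 36.2 in U87-R, and 41.5, 32.4 and 39.1 in U87. ZNF346, which binds double-stranded RNA, had 0.382 and 0 in U87-R STM2457, 9.28, 12.4 and 10.7 in U87-R, and 14.2, 1.86 and 6.85 in U87 (adjusted p = 0.0123, but 0.105 and 0.142 without STM2457 replicate 1 and 2). The sixth gene of the list with called bases, ZNF326, a factor of transcription and splicing, was untested and had 9.72 and 10.7 in U87-R STM2457 and no called base in the other 6 libraries. ZNF326 was thus kept among the genes described through the treated libraries alone.

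Of 3 genes of mitosis and genome stability, ZNF830 fell and ZNF207 and ZNF365 did not pass, where 38.5% of all genes were called lower. Under either scaling none of the 3 was called, and ZNF830 had an adjusted p of 0.0625 and 0.224 (limma). ZNF830 had 196 and 220 in U87-R STM2457, 514, 325 and 384 in U87-R, and 304, 421 and 459 in U87 (-0.94 ± 0.25, log2, SE; limma adjusted p = 0.0135, but 0.0821 without STM2457 replicate 1). ZNF207, which loads BUB3 onto kinetochores, had 379 and 350 in U87-R STM2457, 534, 391 and 413 in U87-R, and 296, 506 and 296 in U87 (adjusted p = 0.407). With bases more than 50 nt from its 5′ end alone it fell by 2.53 (log2; adjusted p = 7.52e-04). ZNF365, which protects genome stability, had 80.8 and 37.4 in U87-R STM2457 and 124, 106 and 114 in U87-R (adjusted p = 0.0756, but 0.0361 without STM2457 replicate 1).

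Sequence-specific regulators of many genes fell in 7 of 9 tested, with a median of -1.08 (log2), and in 4 of 9 under either scaling, where 38.5%, 24.3% and 20.9% of all genes were called lower. ZNF281 and ZNF148, which bind related G-rich sites, had 537 and 528, and 469 and 502, in U87-R STM2457. In U87-R ZNF281 had 1225, 782 and 985 and ZNF148 970, 623 and 816, and in U87 they had 769, 936 and 853, and 705, 801 and 791. ZNF281 changed by -0.88 ± 0.19 (log2, SE; limma adjusted p = 0.00542) and ZNF148 by -0.70 ± 0.19 (adjusted p = 0.0146, but 0.0868 without STM2457 replicate 1), and neither passed under either scaling. ZNF131 had 191 and 180 in U87-R STM2457, 494, 397 and 482 in U87-R, and 533, 590 and 577 in U87, 3 groups without overlap. It fell by 1.29 ± 0.16 under STM2457 (adjusted p = 3.45e-04), and the difference between the lines did not pass (adjusted p = 0.403).

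ZNF410, known for its narrow action on CHD4, had 237 and 213 in U87-R STM2457, 526, 462 and 506 in U87-R, and 367, 378 and 366 in U87, again without overlap. It fell by 1.14 ± 0.15 under STM2457 (log2, SE; limma adjusted p = 4.25e-04), and the difference between the lines did not pass (0.42 ± 0.13; adjusted p = 0.220). CHD4 itself, a remodeller of the NuRD complex, had 209 and 189 in U87-R STM2457, 81.2, 77.4 and 121 in U87-R, and 97.0, 132 and 106 in U87, and was higher under STM2457 (1.11 ± 0.30; adjusted p = 0.0164, but 0.112 and 0.0688 without STM2457 replicate 1 and 2).

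Of the genes of development and differentiation, 3 of 9 tested fell (ZNF503, ZNF703 and ZNF462), with a median of -0.87 (log2), near the 38.5% called lower among all genes. With centred libraries 3 were lower (24.3% of all genes), and with libraries scaled to their totals 2 (20.9%), with a median of -0.17 and ZNF703 no longer called. ZNF503 changed by -1.26 ± 0.11 on the log2 scale (SE; limma adjusted p = 9.78e-05). Its relative ZNF703, an oncogene of luminal breast cancer, had 143 and 182 in U87-R STM2457, 440, 283 and 358 in U87-R, and 472, 405 and 518 in U87 (-1.13 ± 0.23; adjusted p = 0.00383). ZNF462 had 97.0 and 139 in U87-R STM2457, 352, 384 and 272 in U87-R, and 171, 281 and 272 in U87 (-1.51 ± 0.29; adjusted p = 0.00307). ZNF292 did not pass, at 337 and 402 in U87-R STM2457, 800, 443 and 643 in U87-R, and 483, 348 and 736 in U87 (adjusted p = 0.103, but 0.0388 without U87-R replicate 2), although its treated libraries lay below all U87-R libraries.

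ZNF316 (chr7:6637318-6658279, plus strand), among the 5 largest sums, did not pass. Its sums were 1092 and 1117 in U87-R STM2457, 1344, 818 and 1259 in U87-R, and 1142, 903 and 1482 in U87. The change under STM2457 was -0.01 ± 0.25 (log2, SE; limma adjusted p = 0.973), and it was called higher with libraries scaled to their totals. Its leading position, 6652341, scored 98.1 and 106 in U87-R STM2457, 90.5, 112 and 104 in U87-R, and 115, 102 and 107 in U87. ZNF768 had 592 and 663 in U87-R STM2457, 972, 928 and 922 in U87-R, and 896, 1025 and 1007 in U87. It fell by 0.59 ± 0.12 (adjusted p = 0.00505, but 0.0728 without STM2457 replicate 1), and its change was 0.11 with libraries scaled to their totals.

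The partners through which KRAB zinc finger proteins silence chromatin were set beside them. Of 20 tested genes of the TRIM28 corepressor and HUSH machinery, none passed between U87-R and U87, and 6 fell and 2 were higher under STM2457, where 38.5% of all genes were lower and 6.32% higher. With centred libraries 3 were lower and 5 higher (24.3% and 15.3% of all genes), and the median turned from -0.33 to 0.23 (log2), so no direction is given for the group. CBX5, which encodes heterochromatin protein HP1 alpha, had 5.69 and 15.0 in U87-R STM2457 and 109, 91.7 and 89.8 in U87-R (-3.24 ± 0.47, log2, SE; limma adjusted p = 7.43e-04). The remodeller SMARCAD1 had 43.8 and 40.0 in U87-R STM2457 and 196, 158 and 172 in U87-R (-2.03 ± 0.27; adjusted p = 4.62e-04).

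Called bases near the 5′ end ran against the falls. Within 50 nt of the annotated 5′ end there were 143 and 104 called bases of zinc finger genes outside chromosome 19 in U87-R STM2457, 66, 57 and 70 in U87-R, and 56, 68 and 61 in U87. Both treated libraries lay above all U87-R libraries, at 1.92 times their mean, while bases farther away were at 0.529 times theirs (exact two-sided permutation p = 0.1 for each, the smallest possible). The summed score within 50 nt was 1947 and 1813 in U87-R STM2457, 797, 773 and 791 in U87-R, and 560, 767 and 668 in U87.

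As a share of their called bases this was 8.10% and 5.47% in U87-R STM2457, 1.72%, 2.09% and 2.11% in U87-R, and 1.98%, 2.15% and 1.78% in U87. In genes other than zinc finger genes the mean shares were higher, at 16.4% ± 0.554 in U87-R STM2457, 7.51% ± 0.722 in U87-R and 6.59% ± 0.514 in U87 (SD, n = 2, 3 and 3). In zinc finger genes outside chromosome 19 the share was 0.483 and 0.342 times that of the other genes in U87-R STM2457. It was 0.252, 0.254 and 0.283 times in U87-R (exact two-sided permutation p = 0.1). Zinc finger genes of chromosome 19 were alike, with shares of 9.25% and 8.75% in U87-R STM2457, and 1.92%, 3.01% and 2.73% in U87-R. Their called bases within 50 nt were at 2.41 times the U87-R mean under STM2457. Using only bases more than 50 nt from the 5′ end, 83 of 176 zinc finger genes outside chromosome 19 fell under STM2457 and 1, ZNF92, was higher (51.3% and 5.22% of all genes).

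The start bases themselves were examined in the 166 genes with a RefSeq start. A base was called within the first 50 nt of a start in 81 of them. Both STM2457 libraries held 82 such bases, in 40 genes. Scores in both treated libraries were above those of all U87-R libraries at 56 of the 82 and below them at none. Called in both treated libraries means that these bases were picked by the treated libraries, which favours scores above U87-R. A base that either treated library did not list could not be counted, so the counts are a description and give no direction. No such count was made for other genes. Near the 5′ end (50 nt), genes other than zinc finger genes rose too under STM2457. Their called bases there were at 1.33 times the U87-R mean and their summed score at 1.72 times. In zinc finger genes outside chromosome 19 these ratios were 1.92 and 2.39.

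All 22 of these bases that lie exactly at a start were A, where 42.4% of the 224 RefSeq starts of the zinc finger genes have A. In all other genes 95.2% to 96.4% of called start bases per library were A, so this is a feature of the whole series. A C stood before the A in 18 of the 22 (81.8%), against 70.5% of their starts with A and 66.7% of all genes' starts with A; C before A was searched on the gene's strand alone. Among called bases of the first 50 nt, A made up 54.5% in each U87-R STM2457 library, 52.6%, 53.0% and 55.1% in U87-R, and 54.8%, 46.2% and 51.9% in U87, where 15.0% of the letters of those windows are A. In all other genes the share was 54.3% and 54.2% in U87-R STM2457 and 54.0% to 56.1% in U87-R, close to that of the zinc finger genes. Whether these bases carry m6Am was not tested.

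The start base of ZNF830 shown above scored 75.2 and 72.3 in U87-R STM2457, 39.3, 40.4 and 54.7 in U87-R, and 24.4, 48.0 and 33.5 in U87. That of ZNF22 scored 70.2 and 86.5 in U87-R STM2457, 14.8, 28.7 and 38.9 in U87-R, and 26.7, 32.2 and 49.2 in U87. That of ZNF655 scored 78.1 and 71.6 in U87-R STM2457, 50.0, 45.1 and 41.5 in U87-R, and 48.7, 48.8 and 62.3 in U87. In all 3 genes the treated libraries stood above all 6 others.

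In ZNF800 (chr7:127342859-127392708, minus strand) the A at 127392704 scored 47.2 and 53.4 in U87-R STM2457 and was not listed in the other 6 libraries. The sum of the gene nevertheless fell, to 344 and 426 in U87-R STM2457, against 942, 568 and 726 in U87-R (-0.93 ± 0.24, log2, SE; limma adjusted p = 0.0132, but 0.0906 without STM2457 replicate 1). In ZNF207 the A at 32350164 scored 92.9 and 87.6 in U87-R STM2457, 51.1, 66.2 and 48.6 in U87-R, and 39.0, 55.2 and 32.3 in U87. The T beside it, at 32350165, scored 88.3 and 93.9 in U87-R STM2457 and the same as the A in the other 6 libraries, so the scores do not tell these bases apart. The start base of ZNF804A, a psychiatric risk gene, was less clear, at 34.9 and 46.2 in U87-R STM2457, 26.0, 28.8 and 15.1 in U87-R, and 20.3, 64.2 and 22.5 in U87, where U87 replicate 2 was above both treated libraries.

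**Figure D5:**
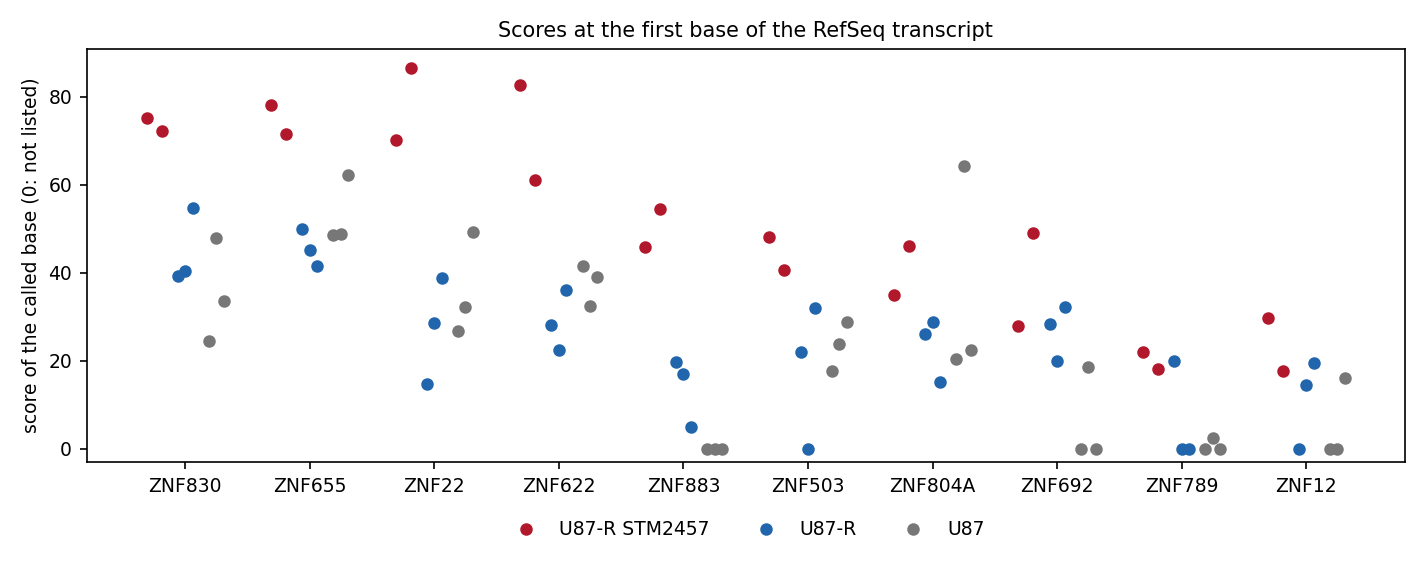
Scores at the first base of the RefSeq transcript per library, for the 10 such bases with the highest lower score of both STM2457 libraries. Points are libraries of U87-R STM2457 (n = 2), U87-R (n = 3) and U87 (n = 3), with 0 where the base is not listed; in ZNF830, ZNF655, ZNF22, ZNF622, ZNF883 and ZNF503 both treated libraries are above all others.

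Single bases were followed where all 3 U87-R libraries gave a score of at least 10. There were 647 such bases in zinc finger genes outside chromosome 19. Neither STM2457 library listed 143 of them (22.1%), and both kept a score of at least 10 at 253 (39.1%). In genes other than zinc finger genes 27.8% of 43112 bases were missing and 45.1% kept. Of the 15 bases within 50 nt of the 5′ end none was missing and all 15 were kept, where 1.04% of 4053 such bases in other genes were missing and 92.8% kept. Of the 632 farther away 22.6% were missing (30.6% in other genes). Bases of 1 library are not replicates, so no test is given.

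The authors' deposited lists of reproducible sites give the same genes 188 sites in U87-R STM2457 (in 85 genes), 725 in U87-R (138 genes) and 674 in U87 (125 genes). Of these, 155 were shared by U87-R STM2457 and U87-R, which is 82.4% of the first list and 21.4% of the second. U87-R and U87 shared 530, which is 73.1% of the U87-R list and 78.6% of the U87 list. The sites in these genes are 1.47% of the whole U87-R STM2457 list, 2.06% of the U87-R list and 2.02% of the U87 list. The lists join 2 libraries in U87-R STM2457 and 3 in the other groups, and are unequally strict. All 188 sites of U87-R STM2457 were in every library of that group. In U87-R this held for 452 of the 725 sites and in U87 for 425 of the 674. ZNF646 had the most sites in U87-R and in U87, with 2 in U87-R STM2457, 21 in U87-R and 27 in U87, and its sums were 402 and 311 in U87-R STM2457, 977, 885 and 823 in U87-R, and 640, 1187 and 1085 in U87. It fell by 1.33 ± 0.26 under STM2457 (log2, SE; limma adjusted p = 0.00315) and was named after its values were seen.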

How the data were processed

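A commercial provider prepared the m6A-eCLIP libraries from polyA RNA, per the labels' protocols; 8 of the 16 labelled libraries were used here. The tools named are STAR, cutadapt and UMI-tools, and the build is hg38, per the submitters' processing notes; the sources used here do not give what called the bases or how scores were made. Deposited by the authors were, per library, a score for each called base (position and strand), and, per group, reproducible sites and peaks with a fraction of supporting libraries and a combined score. No list gives depth, so no counting error is given.

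Genes, spans and starts came from RefSeq (GRCh38.p14). Strand came from the RefSeq starts for 166 zinc finger genes, and for 28 from at least 5 called bases of which at least 80% lay on 1 strand, a rule that gave the annotated strand in 98.6% of 7753 genes where both were known. A base counted for each protein-coding gene of its strand; 11 zinc finger genes share bases with another gene, and ZNF670, ZNF511, ZNF664, ZNF286A and ZNF117 share most of theirs. Scores were summed per gene and library, with 0 where no base was called. In R 4.3.3, limma 3.58.1 modelled log2(sum + 1) with 3 group means, a mean-variance trend and no scaling, for genes whose sum reached 10 in at least 2 libraries, with calls at a Benjamini-Hochberg adjusted p under 0.05. On this scale changes of low sums are understated. The scripts were tested on simulated data. Counts per library were compared by exact two-sided permutation tests.

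Named genes were those called between the lines, the 10 largest called STM2457 changes whose libraries did not overlap and whose higher libraries all held a base, the 5 largest mean sums, and up to 3 per role list by mean sum (of the corepressor list, by change); further genes named from the lists or for start bases were chosen after their values were seen. Members, lists and rules were chosen with earlier results of these data known. Deviations from group means of same-numbered U87 and U87-R libraries correlated at 0.11, 0.31 and 0.11. U87 replicate 1 with U87-R replicate 3 gave 0.12 and U87 replicate 3 with U87-R replicate 1 gave 0.14, so the correlations do not settle whether the numbers pair these libraries. Those of same-numbered U87-R STM2457 and U87-R libraries were -0.03 and -0.03. The calls come from the fit without pairing, with the replicate number as a block given as an alternative, and the permutation tests ignore pairing too. One gene of the glioma marker list, and the sum over that list, are not reported here.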

Additional observations from a re-analysis of the deposited data

How the results depend on the processing

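Of 49 changes of named genes, 49 stayed on their side of the threshold with bases in 1 gene only, 48 with no filter, 46 with a pseudocount of 10, 46 with the replicate block, 34 with centring and 33 with scaling to totals. With no trend 43 stayed, and with called bases counted 38. Several calls under STM2457 also ended without 1 STM2457 library, as given with the genes above. The block ended the calls of ZNF503 between the lines (adjusted p = 0.155) and, under STM2457, of ZNF687 (0.0949) and ZNF33A (0.0570), and changed no other of these calls. Between the lines, the 3 genes called higher in U87-R became 1 when called bases were counted in place of scores. The 2 called lower became 1 with a pseudocount of 0.1, no filter, centring, scaling to totals, counted bases, the replicate block or no trend, and 1 without any single library. With scores of at least 10 there were 4 higher and 3 lower (102 and 51 of all genes). The block left 3 higher and 1 lower zinc finger genes, and 52 and 16 genes in all against 94 and 39 without it. Under STM2457, genes called higher, 0 in the test as planned, were 2 with a pseudocount of 10 (860 of all genes), 2 with no filter (757), 6 with centring (1649), 9 with scaling to totals (1947), 4 with scores of at least 10 (688), 3 with counted bases (380) and 1 beyond 50 nt (529), against 681 of all genes as planned, and 0 to 2 without single libraries (90 to 700). Genes called lower were 44 with centring (2613 of all genes) and 39 with scaling to totals (2256), against 72 (4147), and 49 to 93 without single libraries (3074 to 4630). ZNF687, ZNF768 and ZNF316 turned to 0.13, 0.11 and 0.68 (log2) with scaling to totals, and ZNF593 to 0.13 with counted bases, and the cause was not tested. ZNF883 turned to -2.11 beyond 50 nt, where its start base is left out. With scores of at least 10, the difference in called bases under STM2457 was -548 (-1462 for all bases), and that in genes with a called base was 12.0 between the lines and -13.0 under STM2457 (3.67 and -3.83 for all bases). The share of robust U87-R bases missing under STM2457 was 35.4% with any score and 12.7% with scores of at least 20. Without STM2457 replicate 1 or 2, the lone library is assumed to vary like the other groups. Depth is unknown, so a base not listed is not shown to be unmethylated.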

Other observations

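Some zinc finger genes outside chromosome 19 stood higher under STM2457 in both libraries than in all U87-R libraries without passing the test; they were chosen after their values were seen. There were 10 among the 177 genes tested, where 17.1% of all genes were higher without overlap: ZNF16, ZNF169, ZNF19, ZNF32, ZNF322, ZNF484, ZNF487, ZNF512, ZNF883 and ZNF92. ZNF92 had sums of 81.5 and 109 in U87-R STM2457, 40.4, 32.2 and 4.71 in U87-R, and 21.7, 29.0 and 32.3 in U87 (limma adjusted p = 0.0584, and 0.0392 and 0.0461 without U87-R replicate 1 and 2), with none of it within 50 nt of the 5′ end. ZNF322 had 25.6 and 46.9 in U87-R STM2457, 4.16, 0.206 and 19.2 in U87-R, and 3.45, 9.20 and 5.13 in U87 (adjusted p = 0.0723, and 0.0189 without U87-R replicate 3). ZNF32 had 88.4 and 96.6 in U87-R STM2457, 67.2, 61.9 and 61.7 in U87-R, and 31.7, 22.2 and 53.5 in U87 (adjusted p = 0.384), and of this a mean of 60.7 in U87-R STM2457 and 20.1 in U87-R lay within 50 nt of the 5′ end. ZNF143, ZNF326 and ZNF385C, too low to be tested, had called bases in both U87-R STM2457 libraries and none elsewhere. They were thus kept among the genes described through the treated libraries alone, and ZNF143 had sums of 20.7 and 0.0357 there.

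ZNF487 had changes of opposite sign in the 2 comparisons, which share the U87-R libraries. Its sums were 54.2 and 62.3 in U87-R STM2457, 38.4, 16.9 and 28.1 in U87-R, and 68.0, 69.7 and 122 in U87, without overlap between U87-R and either other group. The limma adjusted p was 0.115 for STM2457 against DMSO and 0.186 for U87-R against U87. ZNF485 had the lowest adjusted p between the lines after the 5 called genes (limma, 0.0847). Its sums were 0.566 and 0.109 in U87-R STM2457, 4.36, 13.9 and 16.2 in U87-R, and 0, 0.783 and 0 in U87. ZNF485 reached the sum of 10 needed for testing only in U87-R replicates 2 and 3, which enter both comparisons. It was thus tested only through the group where it is high. It was called lower under STM2457 (adjusted p = 0.0121, but 0.218 and 0.277 without STM2457 replicate 1 and 2).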
